A study of Homo sapiens with 6 samples.

Results

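The miR-34 and miR-449 microRNAs (miRNAs) form a single family, defined by nearly the same stretch of bases at the 5′ end of their guide strands. The members were taken by name from a count table of mature miRNAs: miR-34a-5p, miR-34a-3p, miR-34b-5p, miR-34b-3p, miR-34c-5p, miR-34c-3p, miR-449a, miR-449b-5p and miR-449c-5p, 9 of the 2656 names listed. The libraries came from KPL4, an established human breast adenocarcinoma line. One group of 3 libraries was from cells whose ERβ had been knocked out. The other group of 3 was from ERβ knockout cells that carried exogenous ERβ, so both groups share the knockout. ERβ (estrogen receptor β) is a nuclear receptor for estrogens. An empty-vector group was not analysed here. How ERβ was introduced, how many knockout clones were used and whether replicates were separate cultures is not stated in the sources. What is due to the receptor and what to making the second kind of cell cannot be told apart, and the p-values cover the spread of these 6 libraries, which may be technical.

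A miRNA recognises messenger RNAs mainly by its seed, bases 2 to 8 from the 5′ end. miR-34a and the miR-34b and miR-34c pair are textbook targets of the tumour suppressor p53 and restrain cell-cycle genes such as CDK4, CDK6 and MYC. The miR-449 locus can be induced by the cell-cycle factor E2F1, acts on overlapping targets, and is best known from multiciliated epithelia, where it helps cells to leave the cell cycle and form cilia. Each hairpin precursor yields a 5p and a 3p strand, of which the 5p strand is usually the one kept in this family.

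Mature sequences were read from the RefSeq table on GRCh38.p14, in which 8 of the 9 members were matched (all but miR-34c-5p). The 5p strands are shown because their seeds define the family, with bases 2 to 8 in capitals.
miR-34a-5p: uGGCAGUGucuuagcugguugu
miR-449a: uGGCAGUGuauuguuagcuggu
miR-449b-5p: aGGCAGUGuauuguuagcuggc
miR-34b-5p: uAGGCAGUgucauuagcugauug
miR-449c-5p: uAGGCAGUguauugcuagcggcugu

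miR-34a-5p, miR-449a and miR-449b-5p have the seed GGCAGUG. In miR-34b-5p and miR-449c-5p an extra base at the 5′ end moves the seed to AGGCAGU. The longest run common to these 5 strands is GGCAGUGU, which starts at base 2 in the former 3 and at base 3 in the latter 2. miR-449a and miR-449b-5p are the same at 20 of 22 bases and differ by U1A and U22C, counted from the 5′ end with the base of miR-449a first. miR-34a-5p and miR-449a are the same at 15 of 22 bases, all of the seed included. One further miRNA of the RefSeq table has either seed, miR-2682-5p with AGGCAGU, and it had a total of 1 count over the 6 libraries.

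The hairpins lie at 3 places on GRCh38. MIR34A is at chr1:9151668-9151777 on the minus strand, in an exon of the long non-coding gene MIR34AHG (GENCODE release 29). MIR34B (chr11:111512938-111513021) and MIR34C (chr11:111513439-111513515) are on the plus strand 417 bases apart, outside annotated genes, with MIR34B 584 bases from the start of BTG4 on the other strand. MIR449A (chr5:55170532-55170622), MIR449B (chr5:55170646-55170742) and MIR449C (chr5:55172262-55172353) all lie on the minus strand in an intron of CDC20B, in the same direction as that gene. MIR449A and MIR449B are 23 bases apart, and MIR449C lies 1519 bases from MIR449B.

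Total counts ran from 10288415 to 14296902 per library, and 783 miRNAs were abundant enough to test. Knockout library S2 stood apart: over these miRNAs the chi-square per degree of freedom was 307 and 331 against the other knockout libraries. It was 12.2 to 21.2 for the remaining pairs within groups. This measure grows with the counts, so abundant miRNAs weigh most in it. The epithelial markers of the miR-200 family and miR-205-5p were abundant, as counts per 1000000 (CPM) summing to 85515 to 101136 in the knockout and 85661 to 90027 CPM in the ERβ libraries. With TMM, the scaling used for all CPM unless stated, 77 miRNAs were called higher and 104 lower with ERβ. Upper-quartile factors gave 123 higher and 70 lower and raised the log2 fold changes by a median of 0.11, and scaling by totals gave 146 and 61 with a median rise of 0.15.

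Of the family, the miR-449a and miR-449b-5p pair and miR-34c-5p were lower in the cells with ERβ, while the far more abundant miR-34a-5p was within 8% of its knockout level and did not pass the test. Log2 fold changes are ERβ over knockout, given with their standard error for 3 libraries in each group, and adjusted p-values are from edgeR's quasi-likelihood test over all tested miRNAs. Of 9 members 8 were abundant enough to test. Of these, 3 were called lower (37.5%) and 0 higher, where 13.3% of all tested miRNAs were called lower and 9.83% higher. The 3 include miR-449a and miR-449b-5p, which are not shown to be separate measurements. All 8 tested members had a negative log2 fold change with TMM, as did 51.3% of all tested miRNAs. Both strands of MIR34A and of MIR34B are among the 8. When scaled by the upper quartile or totals, miR-34a-5p and miR-34a-3p had a positive one. With TMM the median of the 8 was -0.35 against -0.01 over all tested miRNAs. No member was called higher by DESeq2 or limma-voom either, and none had a positive fold change with an unadjusted p under 0.05. With knockout library S2 left out, 5 members were called lower, against 19.6% of all miRNAs then tested.

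**Figure D1:**
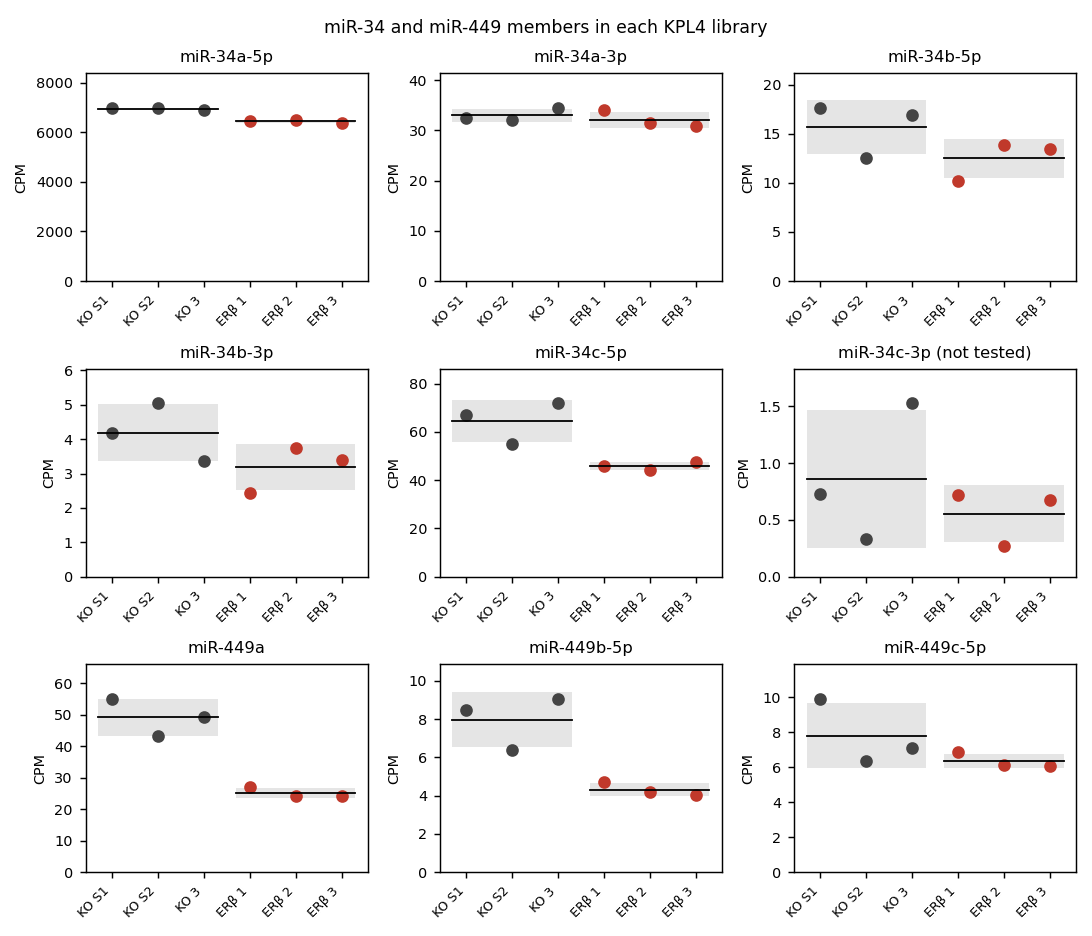
CPM (TMM-scaled, linear axes from 0) of each member in the 3 knockout libraries (grey) and the 3 ERβ libraries (red). Lines are group means and bands the SD (n = 3); miR-449a, miR-449b-5p, miR-34c-5p and miR-34a-5p show no overlap between the groups under this scaling.

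miR-449a, the main product of the CDC20B locus, had the largest change of the family. It stood at 55.0, 43.3 and 49.2 CPM in knockout libraries S1, S2 and 3, and at 26.9, 24.2 and 24.1 CPM in ERβ libraries 1, 2 and 3. Every ERβ library lay below every knockout library, and the lowest knockout value was that of S2. The mean went from 49.2 ± 5.82 to 25.1 ± 1.61 CPM (SD, n = 3 each), or 0.510 of the knockout level, which is -0.97 ± 0.12 on the log2 scale (edgeR adjusted p = 4.25e-04). The call held in all 14 alternative settings, with adjusted p-values up to 0.0149.

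miR-449b-5p, from the neighbouring hairpin, showed a change of similar size at a lower level. Its values were 8.50, 6.36 and 9.05 CPM in the knockout libraries and 4.69, 4.18 and 4.06 CPM in the ERβ libraries. Again the groups did not overlap. The log2 fold change was -0.89 ± 0.18 (edgeR adjusted p = 0.00590), resting on 52 to 93.5 counts per library, for which counting error alone is 10.3 to 13.9%. With the replicate number as a block the adjusted p was 0.0593 and the call was lost.

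The counts of these near-identical strands were not whole numbers in the same libraries. miR-449a had 604.5 and miR-449b-5p 93.5 counts in knockout library S1, and 362.5 and 62.5 counts in ERβ library 2. In the other 4 libraries both were whole, as were all other members in every library. In both libraries the sum of the pair was whole. Whether the counting divided reads between these names was not tested, so the pair are not shown to be separate measurements.

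miR-449c-5p, from the remaining hairpin of the locus, did not pass the test with all libraries. It had 9.91, 6.36 and 7.12 CPM in the knockout libraries and 6.85, 6.15 and 6.08 CPM in the ERβ libraries. The groups overlapped, since knockout library S2 lay below ERβ library 1. The log2 fold change was -0.30 ± 0.19 (edgeR adjusted p = 0.306), and without knockout library S2 it was -0.44 with an adjusted p of 0.0452, which passed. Without knockout library S1, the highest of the 6, it was -0.08.

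miR-34c-5p was lower by a smaller amount. It stood at 67.0, 54.9 and 71.8 CPM in the knockout and at 45.9, 44.4 and 47.3 CPM in the ERβ libraries. All ERβ libraries were lower than all knockout libraries. The mean went from 64.6 ± 8.73 to 45.9 ± 1.47 CPM, a log2 fold change of -0.49 ± 0.12 (edgeR adjusted p = 0.0153). The call was lost with knockout library S1 left out (adjusted p = 0.0509) and with knockout library 3 left out (0.0511). Leaving out an ERβ library also ended it, with 0.0772 for the first, 0.0940 for the second and 0.0662 for the third. It was also lost with the replicate block (0.106), while without knockout library S2 the adjusted p was 4.32e-07.

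miR-34b-5p, which is made from the adjacent hairpin, was less abundant than miR-34c-5p and did not pass. Its values were 17.6, 12.6 and 16.9 CPM in the knockout libraries and 10.2, 13.8 and 13.5 CPM in the ERβ libraries. The groups overlapped through knockout library S2, which lay below ERβ libraries 2 and 3. The log2 fold change of -0.32 ± 0.17 had an adjusted p of 0.235, and without that library -0.45 had 0.00959 and passed (edgeR). Counts of miR-34b-5p were 22.2 to 31.2% of those of miR-34c-5p, with 24.2 ± 1.83% in the knockout and 27.3 ± 4.60% in the ERβ libraries.

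miR-34a-5p, from chromosome 1, was the 42nd most abundant of all listed miRNAs. It had 6958, 6981 and 6893 CPM in the knockout and 6445, 6511 and 6389 CPM in the ERβ libraries. The ERβ libraries were all lower, on 67762 to 97397 counts per library, but the log2 fold change of -0.11 ± 0.06 did not pass (edgeR adjusted p = 0.237). This difference depended on the scaling: it was 0.0051 when scaled by the upper quartile and 0.049 when scaled by totals, and under both the groups overlapped. Leaving out knockout library S2 gave -0.10 with an adjusted p of 0.0504.

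**Figure D2:**
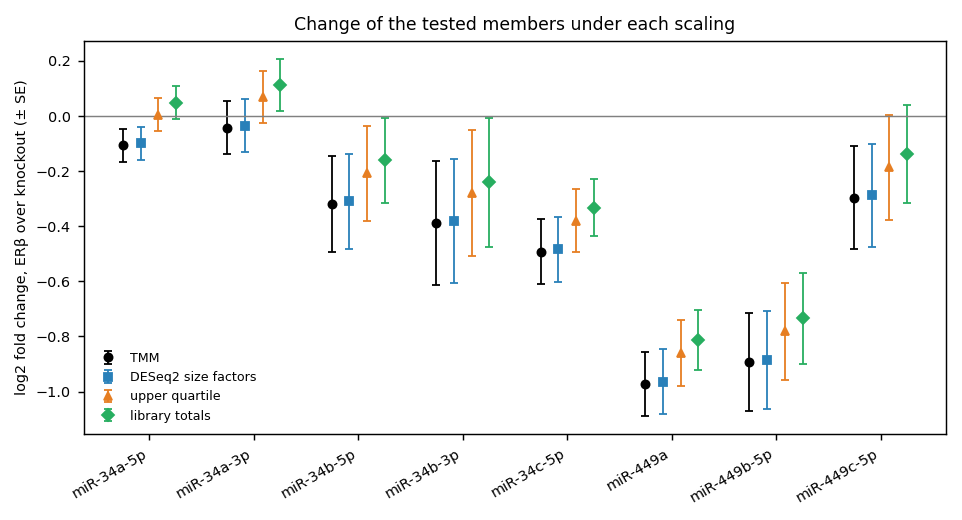
Log2 fold change (ERβ over knockout, ± SE) of the 8 tested members under 4 scalings. miR-449a, miR-449b-5p and miR-34c-5p lie below 0 under each of them, while miR-34a-5p and miR-34a-3p are below 0 with TMM and DESeq2 size factors and above 0 with upper-quartile factors and library totals.

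Groups that did not overlap were seen for 4 of the 8 tested members (50%), all with the ERβ libraries lower, where 20.9% of all tested miRNAs had every ERβ library below every knockout library. Under DESeq2 size factors 4 members were again without overlap, and 3 under the other scalings tried, which lose miR-34a-5p. With library totals every ERβ library lay above every knockout library for miR-34a-3p, at 32.1 to 36.7 against 30.1 to 31.9 CPM. The share over all tested miRNAs was taken with TMM only, so the counts under other scalings have no background beside them. Among all 783 miRNAs ordered from the most negative log2 fold change, miR-449a was number 34, miR-449b-5p number 41 and miR-34c-5p number 109. Knockout library S2 bears on several members: each of the 5 less abundant 5p strands had its lowest knockout value there, while miR-34a-5p had its highest.

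**Figure D3:**
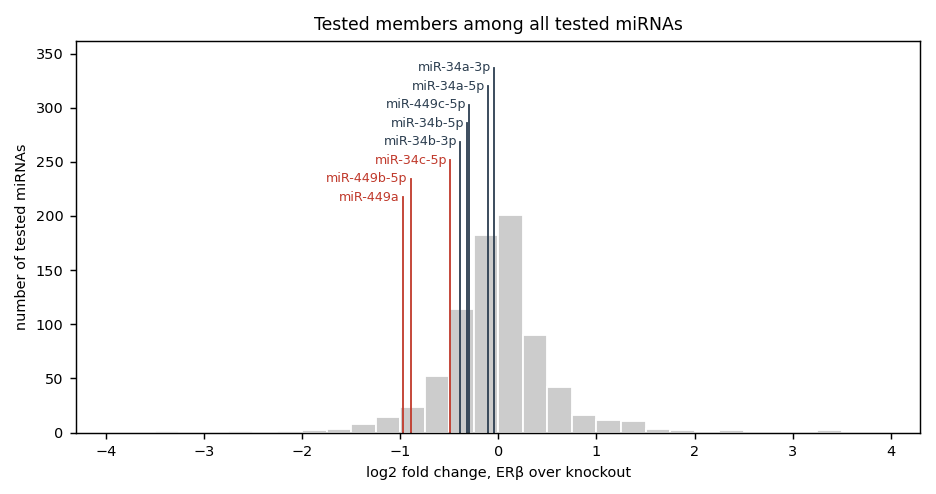
Number of the 783 tested miRNAs by log2 fold change (ERβ over knockout, bins of 0.25), with each tested member as a vertical line (red: called lower). With TMM scaling all 8 lines lie below 0; miR-449a at -0.97 and miR-449b-5p at -0.89 stand farthest from it.

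The 3p strands, normally discarded as the hairpin is loaded, are shown with their hairpins because arm use was compared. Capitals mark the 5p strand, which comes first, and the 3p strand.
MIR34A: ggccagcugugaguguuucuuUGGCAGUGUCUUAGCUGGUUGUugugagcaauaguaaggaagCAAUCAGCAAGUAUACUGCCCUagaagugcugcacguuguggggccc
MIR34B: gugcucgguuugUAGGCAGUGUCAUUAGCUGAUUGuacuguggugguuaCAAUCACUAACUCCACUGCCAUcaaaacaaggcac

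The 3p strands have other seeds, AAUCAGC in miR-34a-3p, AAUCACU in miR-34b-3p and AUCACUA in miR-34c-3p. miR-34a-3p had 32.5, 32.1 and 34.5 CPM in the knockout and 33.97, 31.4 and 30.8 CPM in the ERβ libraries. These ranges overlapped, and the log2 fold change of -0.04 ± 0.10 did not pass (edgeR adjusted p = 0.798), with 0.069 and 0.11 under upper-quartile factors and library totals, where the direction is the opposite. Its counts were 0.460 to 0.527% of those of miR-34a-5p in every library, so nearly all reads of this hairpin came from the 5p arm.

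miR-34b-3p had 4.18, 5.04 and 3.36 CPM in the knockout and 2.43, 3.74 and 3.38 CPM in the ERβ libraries. The groups overlapped and the log2 fold change was -0.39 ± 0.23 (edgeR adjusted p = 0.265), on 27 to 61 counts per library. It was -0.22 without ERβ library 1 or knockout library S2 and -0.52 without knockout library 3. Its counts were 19.9 to 40.1% of those of miR-34b-5p, a far higher share than the 3p strand of MIR34A had. The highest share was that of knockout library S2. miR-34c-3p was too rare to test, with 8, 4 and 15 counts in the knockout and 8, 4 and 10 counts in the ERβ libraries, or 0.602 to 2.12% of the miR-34c-5p counts.

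Other arms of the miR-449 hairpins listed in the table were barely counted. miR-449b-3p had 0 or 1 count in every library, and miR-449c-3p had 3 counts in ERβ library 1 and 0 in the others. At these depths 3 counts, used here as a floor, correspond to 0.201 to 0.305 CPM.

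Ratios of counts between members within a library do not depend on the scaling between libraries, and 8 of them were compared by exact two-sided permutation tests. With 3 libraries against 3 the smallest p these can give is 0.10, so none could pass 0.05. miR-449a was 0.790, 0.620 and 0.714% of miR-34a-5p in the knockout libraries and 0.418, 0.372 and 0.377% in the ERβ libraries. The ERβ libraries were all lower, by -0.86 ± 0.11 on the log2 scale (difference of mean log2 ratios ± SE, exact permutation p = 0.10, Benjamini-Hochberg adjusted 0.20 over the 8).

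miR-34c-5p was likewise lower against miR-34a-5p without overlap, at 0.786 to 1.04% in the knockout and 0.682 to 0.741% in the ERβ libraries (-0.38 ± 0.13). miR-449a was lower against miR-34c-5p, at 68.6 to 82.0% and 50.9 to 58.7% (-0.48 ± 0.10). These 2 had the same exact permutation p of 0.10 (adjusted 0.20).

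Within the CDC20B locus, miR-449c-5p was 18.0, 14.7 and 14.5% of miR-449a in the knockout and 25.4, 25.4 and 25.3% in the ERβ libraries, higher in all 3 by 0.70 ± 0.10 on the log2 scale (exact permutation p = 0.10, adjusted 0.20). miR-449b-5p against miR-449a overlapped between groups, at 14.7 to 18.4% and 16.9 to 17.4%, with a difference of 0.09 ± 0.10 (exact permutation p = 0.40, adjusted 0.533).

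The ratios of 3p to 5p strand overlapped between the groups for both hairpins that could be compared. The difference was 0.06 ± 0.06 for MIR34A (exact permutation p = 0.40, adjusted 0.533) and -0.07 ± 0.31 for MIR34B (p = 1.0, adjusted 1.0); the latter was 0.22 without knockout library S2. miR-34b-3p against miR-34c-5p, from the neighbouring hairpin, also overlapped, at 4.67 to 9.19% in the knockout and 5.30 to 8.43% in the ERβ libraries (exact permutation p = 0.80, adjusted 0.914).

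**Figure D4:**
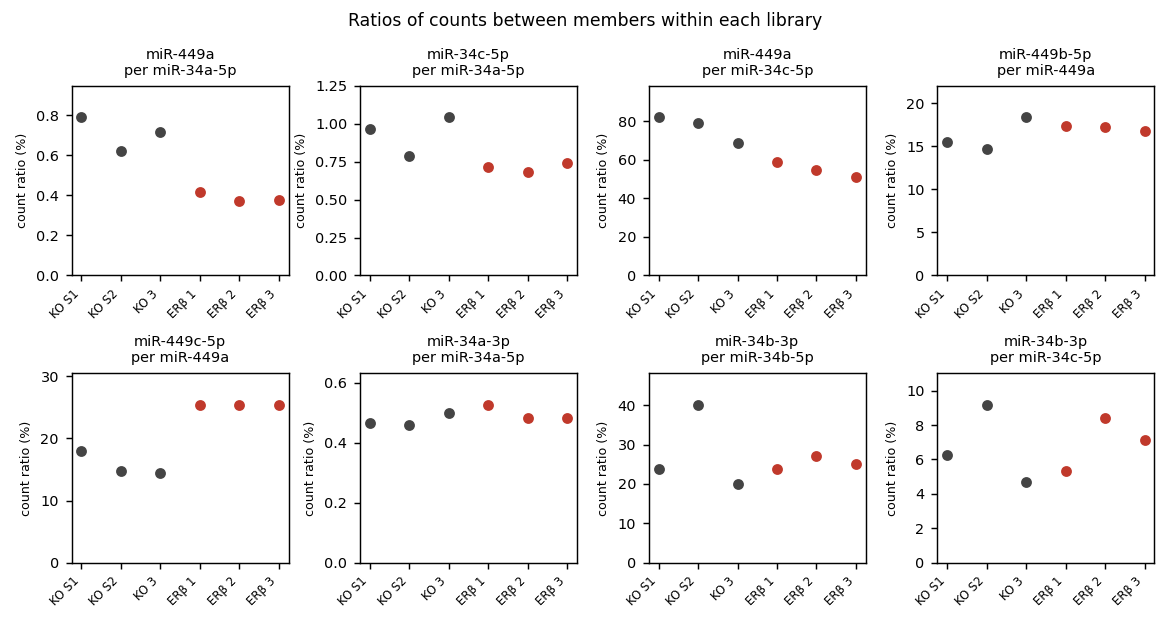
Count of one member as a percentage of another in the same library (linear axes from 0), for 8 pairs; grey points are knockout and red points ERβ libraries. The 3 ratios that set miR-449a or miR-34c-5p against miR-34a-5p or each other are lower in all ERβ libraries, miR-449c-5p per miR-449a is higher in all of them, and the other 4 overlap.

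The summed level of the 6 5p strands is given as a description, since it was set almost wholly by miR-34a-5p. It was 7116, 7105 and 7047 CPM in the knockout and 6540, 6604 and 6484 CPM in the ERβ libraries. miR-34a-5p made up 97.8 to 98.3% of the sum in the knockout and 98.5 to 98.6% in the ERβ libraries. The log2 ratio of the group means was -0.12 with TMM, -0.0039 when scaled by the upper quartile and 0.040 by totals, so its sign depended on the scaling.

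The other 5 strands together went from 145 ± 18.9 to 94.1 ± 1.16 CPM. miR-34c-5p was the largest of them in every library, at 42.4 to 46.6% of the 5 in the knockout and 47.8 to 49.8% in the ERβ libraries. miR-449a followed, with 31.9 to 35.1% and 25.3 to 28.5%. The 3 miR-449 strands summed to 73.4, 56.0 and 65.4 CPM in the knockout and 38.5, 34.6 and 34.2 CPM in the ERβ libraries, and the miR-34b and miR-34c 5p strands to 84.6, 67.4 and 88.7 CPM and 56.0, 58.2 and 60.8 CPM.

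By order of mean level, miR-34a-5p came first and miR-34c-5p next in both groups, followed by miR-449a in the knockout and by miR-34a-3p in the ERβ libraries. In the knockout the ranges of miR-34c-5p and miR-449a met at their ends (54.9 to 71.8 and 43.3 to 55.0 CPM), and in the ERβ libraries they were apart (44.4 to 47.3 and 24.1 to 26.9 CPM). miR-34a-3p lay between miR-449a and miR-34b-5p in the knockout, and above miR-449a in all 3 ERβ libraries. miR-449b-5p and miR-449c-5p were level in the knockout (7.97 ± 1.42 and 7.80 ± 1.87 CPM), whereas in each ERβ library miR-449c-5p was the higher of the pair.

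Other miRNAs known to be induced by p53 did not move in 1 direction. Whether p53 has a part in the change of the family was not tested. Of 11 listed, 9 were tested; 1 was higher and 3 lower, beside the 9.83% and 13.3% of all tested miRNAs, with a median log2 fold change of -0.0043 that was 0.0039, 0.11 and 0.15 under DESeq2, upper-quartile and library-total scaling. miR-143-3p, a smooth-muscle and stromal miRNA, went from 8.0 ± 0.646 to 3.60 ± 0.121 CPM (-1.15 ± 0.15; edgeR adjusted p = 5.45e-04). The epithelial miR-200c-3p (-0.31 ± 0.07, adjusted p = 0.0123) and miR-141-3p (-0.33 ± 0.09, adjusted p = 0.0295) were the others called lower, and miR-192-5p (0.21 ± 0.07, adjusted p = 0.0418) was called higher. Scaling by the upper quartile left 1 higher and 1 lower (123 and 70 of all 783 tested miRNAs). Totals gave 2 and 1 (146 and 61 of all), and the replicate block 0 and 1 (38 and 50 of all). Leaving out knockout library S2 gave 2 and 3 (122 and 157 of all 800 then tested). Leaving out any other knockout library gave 0 and 2 (62 or 71 of all higher, 81 or 88 lower). Any single ERβ library left out gave 0 and 1 (49 to 53 of all higher, 58 to 62 lower). The DESeq2 test gave 0 and 3 (70 and 98 of all 783), as did the fit with no filter (102 and 101 of all 1864).

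Other miRNAs induced by E2F factors, from the miR-17, miR-106b and miR-15b clusters, had 3 of 10 tested members higher, beside 9.83% of all tested miRNAs, with a median of 0.24 against -0.01 over all tested miRNAs. None was lower by edgeR, DESeq2 or limma-voom, nor by edgeR's unadjusted p under 0.05. miR-18a-5p went from 159 ± 27.5 to 252 ± 8.24 CPM (0.67 ± 0.13; edgeR adjusted p = 0.00445). miR-17-5p (0.40 ± 0.11, adjusted p = 0.0327) and miR-20a-5p (0.34 ± 0.11, adjusted p = 0.0441), of the same transcript, were the others called. Also of that transcript, miR-19a-3p (0.28 ± 0.14, edgeR adjusted p = 0.187), miR-92a-3p (0.04 ± 0.11, 0.823) and miR-19b-3p (-0.07 ± 0.11, 0.712) did not pass. The number higher was 4 when scaled by the upper quartile (15.7% of all tested miRNAs then higher), 6 by totals (18.6%), 6 with no filter (5.47%) and 1 with the replicate block (4.85%). It was 7 without knockout library S2 (15.2%), with 1 lower (19.6%). Leaving out any single ERβ library gave 1 higher (49 to 53 of all miRNAs then tested). The part of E2F factors in the change of the family was likewise not tested.

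The miRNAs listed as markers of other cell types moved in part with the lower members. Some of them are also made by carcinoma cells, and whether any came from other cells was not tested. Both tested stromal and muscle markers, miR-143-3p and miR-1-3p, were lower. Of all tested miRNAs 13.3% were lower and 9.83% higher, which is the background for each list here. The 6 listed stromal and muscle markers summed to 10.9 to 13.5 CPM in the knockout and 4.19 to 5.08 CPM in the ERβ libraries. Among them miR-206 and miR-214-3p had 0 to 2 counts. Of the 2 endothelial markers miR-126-3p was lower (-0.30 ± 0.06, edgeR adjusted p = 0.00795), a call lost when scaled by the upper quartile or totals, with the replicate block, and without ERβ library 1 or 2. Without knockout library S2 both endothelial markers were lower, beside 19.6% of all miRNAs then tested. Their sum over all libraries was 21623 to 23178 CPM in the knockout and 18133 to 20023 CPM in the ERβ libraries. The liver marker miR-122-5p stood at 17.2 to 20.5 CPM in the knockout and 20.1 to 28.7 CPM in the ERβ libraries and did not pass (0.33 ± 0.15 on the log2 scale, edgeR adjusted p = 0.153). The 6 blood markers summed to 18.0 to 23.0 and 18.7 to 21.8 CPM, and the neural marker miR-124-3p had less than 1 count in every library. The epithelial markers did not move together: miR-200c-3p and miR-141-3p were called lower, miR-205-5p was called higher (0.52 ± 0.08, edgeR adjusted p = 0.00149), and miR-200a-3p (-0.01), miR-200b-3p (-0.25) and miR-429 (0.07) did not pass. None of the 6 was lower when scaled by the upper quartile or totals, or with the replicate block. Of all 783 tested miRNAs 70, 61 and 50 were then lower. None was lower with any single ERβ library left out, where 58 to 62 of all tested miRNAs were lower. Without knockout library S2 4 were lower, beside 19.6% of all miRNAs then tested. miR-143-3p, miR-200c-3p and miR-141-3p are also the 3 called lower in the p53 list, so they are not separate observations. The part of these markers in the change of the family was not tested.

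The miRNAs whose log2 CPM followed a member most closely over the 6 libraries were taken from 385 others averaging at least 10 CPM. For miR-449a these were miR-320d (Pearson r = 0.996), miR-23a-3p (0.994) and miR-708-5p (0.992). miR-30b-5p (0.996), miR-26a-5p (0.996) and miR-450a-5p (0.994) were closest to miR-34c-5p, and miR-20b-5p (0.992), miR-146a-5p (0.991) and miR-10a-3p (0.988) to miR-34a-5p. Such values were frequent, with 49 to 52 of the 385 exceeding 0.9 for each member; the values share their libraries, the split into groups and the scaling. The likeness is in pattern, not in size: miR-320d had a log2 fold change of -0.79 ± 0.11 and miR-708-5p of -2.02 ± 0.18 beside the -0.97 of miR-449a. Among the members themselves r was 0.98 for miR-449a with miR-449b-5p, 0.95 with miR-34a-5p, 0.94 with miR-34c-5p and 0.72 with miR-449c-5p.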

How the data were processed

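Small RNA libraries of 3 ERβ knockout and 3 knockout plus ERβ samples of KPL4 cells were made with a QIAseq miRNA kit, per the labels' protocols. FastQC, Trim Galore and GRCh38 are named in the submitters' processing notes; not given in the sources used here are the aligner, the counter, and how shared reads and molecular tags were treated. The deposited table holds expected counts per mature miRNA, 6.33 to 7.27% of them not whole. Of the knockout columns 2 carry the number 1 and are called S1 and S2; they are known by group only.

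After rounding, the expected counts of all miRNAs were fitted by edgeR 4.0.16 under R 4.3.3 (filterByExpr, minimum count 10 and total 15, TMM, robust quasi-likelihood test, Benjamini-Hochberg over 783 miRNAs at 0.05, of which 269 had an unadjusted p under 0.05). Standard errors were obtained by dividing each log2 fold change by its root F statistic. The script was tested on simulated data. Alternatives were DESeq2 1.42.0 size factors and test, upper-quartile factors, library totals, no filter, at least 10 CPM in 3 libraries, limma-voom (limma 3.58.1), a replicate block and each library left out. Ratios used a pseudocount of 0.5 and needed a mean of 10 counts per group, which left out miR-34c-3p. Named were the members, their other arms, miRNAs sharing a seed, and the 3 closest in pattern to miR-34a-5p, miR-34c-5p and miR-449a. The 3 of each list with the smallest adjusted p were also named. After their values were seen, miR-192-5p, miR-1-3p, the other markers, miR-19a-3p, miR-19b-3p and miR-92a-3p were added. Members and lists were chosen with earlier results of these data known. Sequences are from RefSeq (GRCh38.p14), gene positions from GENCODE release 29. Counting error covers reads only. Figures were drawn with matplotlib 3.10.9.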

Additional observations from a re-analysis of the deposited data

How the results depend on the processing

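miR-449a kept its direction and call in all 14 alternatives, and miR-449b-5p in 12 of 13 (not run at 10 CPM in 3 libraries, where it, miR-449c-5p and miR-34b-3p drop out). Members called lower numbered 1 with the replicate block and 2 to 5 with a library left out; none was higher in any alternative. With the block miR-34c-5p was at -0.49 and miR-449b-5p at -0.88, both no longer called, and all miRNAs had 50 lower and 38 higher calls. Same-numbered libraries share only a number (deviations correlated at -0.10, 0.13 and 0.12). Of the knockout columns 2 share the number 1 and none has the number 2. ERβ library 2 was therefore alone in its block and added nothing to the comparison, so the block is no better design. All miRNAs had 61 lower with library totals and 66 with the filter of 10 CPM. They had 123 higher when scaled by the upper quartile and 146 by totals, and 58 to 157 lower and 49 to 122 higher with a library left out. miR-34a-5p turned to 0.0051 and 0.049 and miR-34a-3p to 0.069 and 0.11 with upper-quartile factors and library totals, and miR-34a-3p to 0.0043 without a filter. With a library left out, miR-34a-3p ranged from -0.063 to 0.0071, miR-34b-5p from -0.45 to -0.17, miR-34b-3p from -0.52 to -0.22, miR-34c-5p from -0.60 to -0.41 and miR-449c-5p from -0.44 to -0.084. The log2 ratio of the summed 5p strands was -0.0039 with upper-quartile factors, 0.040 with library totals and -0.12 to -0.085 with a library left out. The ratio of miR-34b-3p to miR-34b-5p ranged from -0.28 to 0.22 and to miR-34c-5p from -0.14 to 0.34. The other 6 ratios kept their direction in all 7 alternatives. The cause of these changes was not tested. miR-34b-3p and miR-34c-3p were limited by depth, with 27 to 61 and 4 to 15 counts per library.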
